A study of Homo sapiens with 9 samples.

Results

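AU-rich element mRNA decay factors are the RNA-binding proteins and enzymes that set how long short-lived mRNAs persist, and 9 of their genes were chosen by name: ZFP36, ZFP36L1, ZFP36L2, ZC3H12A, ELAVL1, KHSRP, TIA1, TIAL1 and CNOT7. A gene was taken as measured where a probe set carried its symbol and no other, with the brightest such probe set kept. This held for 8 of the 9 genes, out of 22109 genes in all, and each of the 8 had 1 such probe set. KHSRP was left out because its probe set also carries the symbol of a microRNA gene. The RNA came from MDA-MB-231, a cell line that was established from the pleural effusion of a breast cancer, and was read on 9 Affymetrix whole-transcript arrays, 3 for each of 3 groups. The 20 h group was given YM-155 (sepantronium bromide) at 14.6 ng/ml, described as its LC50. The 8 h group was given YM-155 stepwise to a sum of 83 ng/ml. The control group was untreated, and neither a vehicle nor a culture time is stated for it. All groups are the same line. Dose and time differ together between the treated groups, so a difference between them cannot be given to either. YM-155 is a small molecule known as a suppressor of survivin expression.

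Many mRNAs for cytokines, growth factors and early transcription factors hold AU-rich elements, stretches of A and U in the untranslated end of the message. Proteins of the ZFP36 family bind these stretches through paired zinc fingers and bring in the CCR4-NOT complex, which shortens the poly(A) tail, after which the message is decapped or degraded by the exosome. ELAVL1 (HuR) binds similar stretches and protects the message, while TIA1 and TIAL1 hold back its translation. ZC3H12A (regnase-1) is an endonuclease that cuts stem-loops in inflammatory mRNAs. Transcription of ZFP36 and ZC3H12A is known to be switched on by the same inflammatory and growth signals that induce their targets, which makes them feedback regulators.

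Promoter windows are shown for 3 of the genes that rose at 20 h against control, as examples of the start regions of these genes. They are RefSeq windows of GRCh38.p14, from 250 bases before to 50 bases after the annotated start, written 5′ to 3′ along the gene. Windows of 5 of the 8 measured genes were searched, 7 windows in all. Capitals mark matches on either strand to the sites searched, namely the CArG box of serum response factor, the NF-kB site, the cAMP response element TGACGTCA, the AP-1 site TGANTCA, the EGR site GCGNGGGCG and TATAA. The last of these was added after the windows had been seen. The ZFP36 window is chr19:39406597-39406896 on the plus strand, the ZC3H12A window is chr1:37474330-37474629 on the plus strand, and the ZFP36L1 window shown is chr14:68793367-68793666 on the minus strand.
ZFP36: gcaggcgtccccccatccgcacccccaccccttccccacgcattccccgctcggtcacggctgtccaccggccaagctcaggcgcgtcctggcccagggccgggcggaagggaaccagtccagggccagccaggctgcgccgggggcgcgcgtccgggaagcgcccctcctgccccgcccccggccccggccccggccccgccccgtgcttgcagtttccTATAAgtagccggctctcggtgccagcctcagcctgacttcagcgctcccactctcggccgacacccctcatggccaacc
ZC3H12A: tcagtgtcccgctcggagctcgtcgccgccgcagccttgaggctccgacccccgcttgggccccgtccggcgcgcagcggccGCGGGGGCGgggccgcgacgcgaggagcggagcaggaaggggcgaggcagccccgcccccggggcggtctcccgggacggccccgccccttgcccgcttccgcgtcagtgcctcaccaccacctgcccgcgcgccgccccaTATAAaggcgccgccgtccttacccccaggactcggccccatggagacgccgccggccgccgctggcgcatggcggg
ZFP36L1: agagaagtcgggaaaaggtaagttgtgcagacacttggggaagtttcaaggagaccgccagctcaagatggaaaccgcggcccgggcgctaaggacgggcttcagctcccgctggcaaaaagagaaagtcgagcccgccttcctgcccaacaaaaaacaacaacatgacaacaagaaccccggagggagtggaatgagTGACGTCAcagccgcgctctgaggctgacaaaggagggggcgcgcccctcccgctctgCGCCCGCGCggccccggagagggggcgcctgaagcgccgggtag

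Positions count from 0 at the annotated start. TATAA lies at bases -30 to -26 from the start in ZFP36 and at -27 to -23 in ZC3H12A, and 20.4% of all 35116 promoter windows hold it. The cAMP response element of ZFP36L1 lies at bases -52 to -45 and is a palindrome, so it matches on both strands, and 1.85% of all windows hold it. The EGR site is in ZC3H12A and ZFP36L1 and in 9.43% of all windows. The CArG box (1.29% of all windows), the NF-kB site (5.91%) and the AP-1 site (7.71%) had no match in any of the 7 windows, which says only that these letters are not there. The other ZFP36L1 window and the TIAL1 window held none of the 6 sites, and of the windows of TIA1 only that at chr2:70248744-70249043 had a match, to TATAA on the opposite strand at -148 to -144.

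Values are RMA summaries on the log2 scale, in which a difference of 1 is a doubling, and all array medians were at least 3.11. Differences were tested in limma across all 22109 genes, with Benjamini-Hochberg adjusted p under 0.05 as the call. Nothing in the labels says that the replicates were separate cultures, so p-values measure only how far these samples differ, and that may be technical. With 3 arrays a group, the smallest p of an exact permutation test is 0.1. In a bulk sample, fewer cells with a transcript and less of it per cell cannot be told apart. Control replicate 3 lay apart. Over the 11054 brighter genes, the SD of its difference was 0.312 from control replicate 1 and 0.313 from control replicate 2, against 0.187 between the other two. The line's known markers VIM, CD44, AXL, CAV1, EGFR and MSN had group means between 7.86 and 10.55, and the epithelial and hormone receptor genes ESR1, PGR, ERBB3, GATA3, CDH1 and EPCAM between 1.95 and 6.16, though levels of different probe sets cannot be set against each other.

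Genes of the ZFP36 family and ZC3H12A were higher after 20 h of YM-155, and TIA1 was lower. At 20 h against control, 4 of the 8 measured genes rose (13.1% of all genes tested did) and 2 fell (17.2% of all genes did). In the 8 h group 2 rose against control (5.93% of all genes) and 1 fell (6.28% of all genes). Between the treated groups, 3 were higher at 20 h (8.95% of all genes) and 2 lower (13.6% of all genes). The 4 that rose at 20 h were ZFP36, ZFP36L1, ZFP36L2 and ZC3H12A, and the median difference of the 8 genes was 0.59, against 0.03 over all genes. At 8 h that median was 0.16, against 0.00 over all genes. The number that fell was 1 at 20 h without control replicate 2 or 20 h replicate 2, and 0 at 8 h without replicate 1 or 2 of either the control or the 8 h group.

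**Figure D1:**
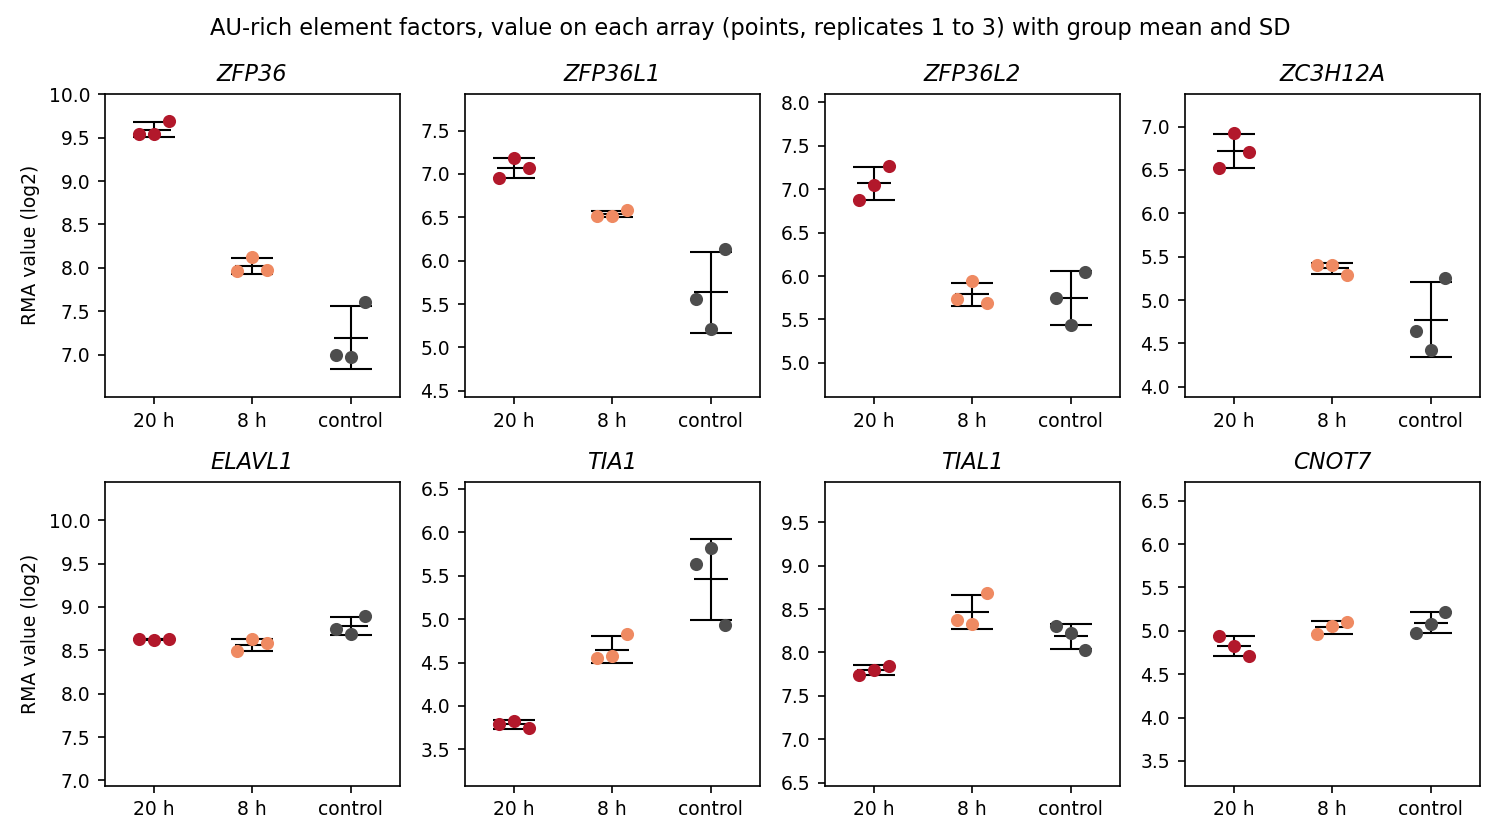
RMA values (log2, vertical axis) of the 8 measured genes on each array, with the 20 h, 8 h and control groups side by side. Points are replicates 1 to 3 from left to right, bars are the mean and SD of 3 arrays, and every panel spans the same number of log2 units. The ZFP36 arrays of the 20 h group lie at 9.54 to 9.69, above the 8 h arrays at 7.96 to 8.13 and the control arrays at 6.97 to 7.61, while TIA1 runs the other way.

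ZFP36 (probe set 16861997) encodes tristetraprolin, the founding protein of the family, which promotes the decay of AU-rich mRNAs. Its values were 9.54, 9.54 and 9.69 at 20 h, 7.96, 8.13 and 7.97 at 8 h, and 6.99, 6.97 and 7.61 in control. The 3 groups did not overlap, and the spread was widest in control, through replicate 3. The difference at 20 h against control was 2.40 (SE 0.16, limma adjusted p = 2.08e-06), a 5.28-fold rise. At 8 h against control it was 0.83 (SE 0.16, limma adjusted p = 0.00684), a 1.78-fold rise. The 20 h arrays were higher than the 8 h arrays by 1.57 (SE 0.16, limma adjusted p = 8.72e-05). Without control replicate 3 the differences from control were 2.61 at 20 h and 1.04 at 8 h.

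ZFP36L1 (probe set 16794158) encodes a close relative with the same paired zinc fingers and binding preference. It stood at 6.95, 7.18 and 7.07 at 20 h, at 6.52, 6.52 and 6.58 at 8 h, and at 5.56, 5.21 and 6.13 in control. All treated arrays were above all control arrays, and the 20 h arrays were above the 8 h arrays. The gene rose by 1.43 at 20 h (SE 0.19, limma adjusted p = 0.000207), a 2.70-fold difference, and by 0.90 at 8 h (SE 0.19, limma adjusted p = 0.0113). The difference of 0.53 between 20 h and 8 h did not pass (95% interval 0.12 to 0.95, limma adjusted p = 0.0688). It passed without control replicate 3 (limma adjusted p = 0.00558) and without control replicate 2 (0.0234), where the difference itself is the same and the estimated spread is not. Without control replicate 3 the differences from control were 1.68 at 20 h and 1.15 at 8 h.

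ZFP36L2 (probe set 16897026), the third member of the family in human cells, encodes a zinc finger protein known for its role in blood and germ cell development. It had 6.88, 7.05 and 7.27 at 20 h, 5.73, 5.94 and 5.69 at 8 h, and 5.75, 5.44 and 6.05 in control. The 20 h arrays stood above all others, while the 8 h arrays lay within the range of the controls. The rise at 20 h was 1.32 (SE 0.16, limma adjusted p = 0.000106), with a 95% interval of 0.97 to 1.67. At 8 h the difference from control was 0.04 (95% interval -0.31 to 0.39, limma adjusted p = 0.917). The difference between 20 h and 8 h was itself significant, at 1.28 (SE 0.16, limma adjusted p = 0.000296). Leaving out control replicate 3 gave 1.48 at 20 h and 0.20 at 8 h, the second again not called (limma adjusted p = 0.48).

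ZC3H12A (probe set 16662623), the stem-loop endonuclease, gave 6.52, 6.92 and 6.71 at 20 h, 5.40, 5.40 and 5.29 at 8 h, and 4.64, 4.43 and 5.26 in control. The 20 h arrays were well above the rest, and the lowest 8 h array was only just above control replicate 3. The gene rose at 20 h by 1.94 (SE 0.19, limma adjusted p = 2.75e-05), a 3.84-fold difference. At 8 h its difference of 0.59 did not pass (95% interval 0.17 to 1.01, limma adjusted p = 0.0729). It was 0.83 without control replicate 3 and then passed (limma adjusted p = 0.00301), with 2.19 at 20 h. It was higher at 20 h than at 8 h by 1.35 (SE 0.19, limma adjusted p = 0.00065).

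TIA1 (probe set 16898728) encodes a translational repressor that gathers mRNAs into stress granules. Its values were 3.79, 3.83 and 3.74 at 20 h, 4.55, 4.57 and 4.83 at 8 h, and 5.63, 5.82 and 4.93 in control. The groups did not overlap, and control replicate 3 was the lowest of the controls, next to the 8 h arrays. TIA1 fell by 1.67 at 20 h (SE 0.19, limma adjusted p = 8.67e-05), to values under the median level of all genes, 3.89, where no detection call was at hand. It fell by 0.81 at 8 h (SE 0.19, limma adjusted p = 0.0211) and by 0.86 at 20 h against 8 h (SE 0.19, limma adjusted p = 0.00901). The call at 8 h ended when control replicate 1 was left out (limma adjusted p = 0.0786), and likewise for control replicate 2 (0.0691). The same held for 8 h replicate 1 (0.0789) and for 8 h replicate 2 (0.0737). With only the 2 groups compared it was 0.0728, and with 8 h replicates 1 and 2, the most alike pair of arrays, counted as 1 it was 0.0757. Without control replicate 3 the differences were -1.94 at 20 h and -1.07 at 8 h (limma adjusted p = 0.000407).

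TIAL1 (probe set 16718950), which encodes the TIA1-related protein TIAR, did not follow TIA1 at 8 h. It had 7.74, 7.80 and 7.85 at 20 h, 8.38, 8.33 and 8.69 at 8 h, and 8.31, 8.22 and 8.03 in control. The 20 h arrays were the lowest and the 8 h arrays the highest, with no overlap. The gene fell by 0.39 at 20 h against control (SE 0.11, limma adjusted p = 0.0229) and by 0.67 at 20 h against 8 h (SE 0.11, limma adjusted p = 0.00194). Its difference of 0.28 at 8 h against control did not pass (95% interval 0.03 to 0.53, limma adjusted p = 0.157). The call at 20 h against control ended when control replicate 1 was left out (limma adjusted p = 0.0871), and likewise for control replicate 2 (0.069). The same held for 20 h replicate 1 (0.0718) and for 20 h replicate 2 (0.0581).

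ELAVL1 (probe set 16868053) encodes HuR, the protein that shields AU-rich mRNAs from decay. Its arrays read 8.63, 8.62 and 8.63 at 20 h, 8.49, 8.63 and 8.58 at 8 h, and 8.75, 8.69 and 8.89 in control. Every treated array was below every control array, by small amounts. The difference was -0.15 at 20 h (95% interval -0.33 to 0.03, limma adjusted p = 0.196) and -0.21 at 8 h (95% interval -0.39 to -0.03, limma adjusted p = 0.133), so neither passed. Between 20 h and 8 h it was 0.06 (95% interval -0.12 to 0.24, limma adjusted p = 0.66).

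CNOT7 (probe set 17074966) encodes a catalytic deadenylase of the CCR4-NOT complex, the enzyme that ZFP36 proteins recruit. It had 4.94, 4.83 and 4.71 at 20 h, 4.96, 5.05 and 5.10 at 8 h, and 4.98, 5.08 and 5.22 in control. The 20 h arrays were below the other groups, and the 8 h arrays overlapped the controls. The difference was -0.27 at 20 h against control (95% interval -0.48 to -0.06, limma adjusted p = 0.0549) and -0.06 at 8 h (95% interval -0.26 to 0.15, limma adjusted p = 0.797). The first of these passed with arrays centred on their medians (-0.30, limma adjusted p = 0.0418), over genes above the median level (0.0328), without control replicate 1 (0.0456) and without 20 h replicate 1 (0.0405). Over the 18 alternatives the 20 h difference from control ranged from -0.32 to -0.15, with a limma adjusted p of up to 0.25. At 20 h against 8 h the difference was -0.21 (limma adjusted p = 0.141).

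**Figure D2:**
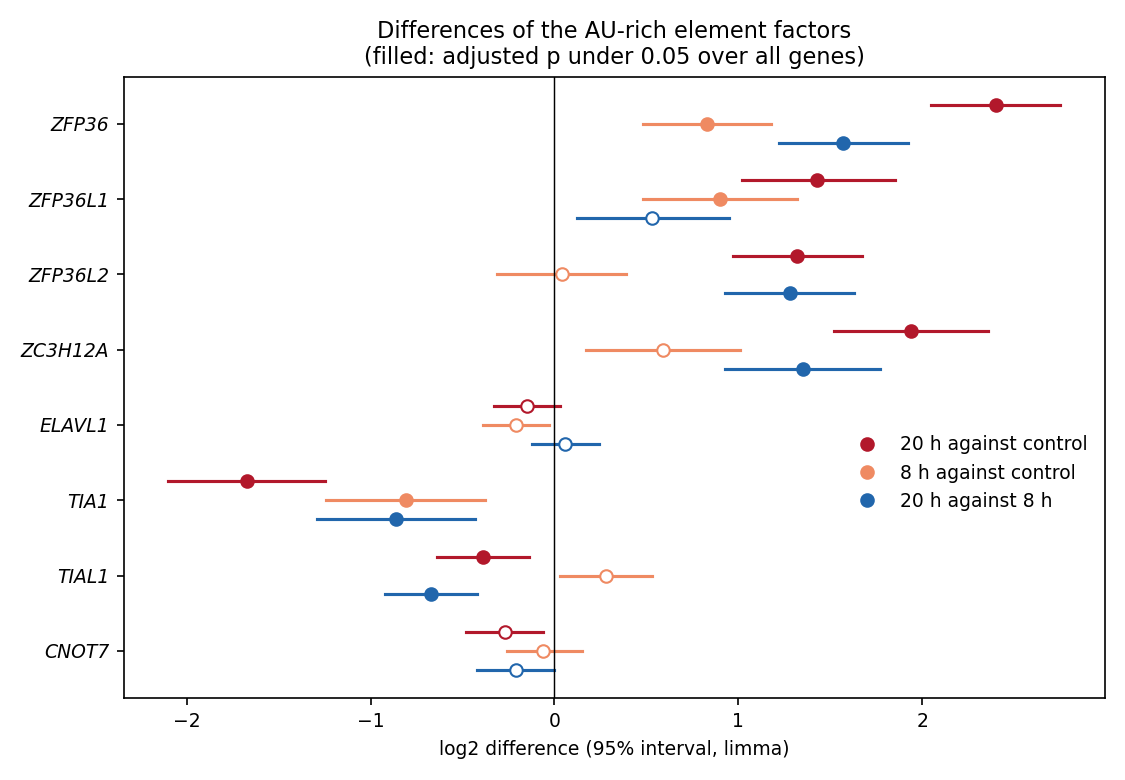
Differences in log2 units (horizontal axis) for the 8 measured genes with 95% limma intervals, with the 3 comparisons in the order of the legend from top to bottom within each gene. Filled points passed an adjusted p under 0.05 over all genes. The 4 genes at the top are right of 0 at 20 h, from 1.32 for ZFP36L2 to 2.40 for ZFP36, and TIA1 is left of 0 in all 3 comparisons.

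The genes most like each called factor over the 9 arrays were found by Pearson correlation among 11046 other genes above the median level, as a description of arrays that share the same 3 groups. ZFP36 was most like SPSB1, a SOCS-box adaptor of ubiquitin ligases, MAX, the partner of MYC, and ZFAND2A, a heat shock and arsenite inducible protein gene (r = 0.994 for each). ZC3H12A was most like IMP4, of the small subunit processome (r = 0.997), JUND, an AP-1 subunit (0.996), and KLF10, an early response zinc finger factor (0.994). ZFP36L1 was closest to AKIRIN2, a nuclear factor of inflammatory transcription (0.992), CDV3 (0.991) and FAM117B (0.989). ZFP36L2 was closest to C11orf68 (0.993), the translation factor gene EIF5A (0.992) and REXO1L2P (0.991), a locus with near-identical copies whose value is uncertain. TIA1 was most like EXOC2, of the exocyst, and SLC38A9, a lysosomal amino acid sensor (0.993 for each), and ATG4C, an autophagy protease (0.992). TIAL1 was most like the ubiquitin ligase gene MARCHF7 (0.995), BTAF1, which removes TATA-binding protein from DNA (0.982), and the transporter gene ABCA5 (0.981).

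Of 18 measured genes for other AU-rich and stem-loop binding proteins, 5 rose (27.8%, against 13.1% of all genes) and 2 fell (11.1%, against 17.2%) at 20 h against control, with a median of 0.03, equal to the 0.03 over all genes. HNRNPA0, which binds AU-rich mRNAs of the stress response, averaged 8.52 ± 0.07 at 20 h and 7.51 ± 0.31 in control (SD, n = 3 each), a rise of 1.01 (limma adjusted p = 0.000219). RC3H1, which encodes roquin-1, a stem-loop binding protein that works on many of the same targets as ZC3H12A, rose by 0.86 at 20 h and 0.60 at 8 h. ZC3H12C, a paralog of ZC3H12A, rose by 0.75 at 20 h and 1.20 at 8 h, and was lower at 20 h than at 8 h by 0.44 on the log2 scale (limma adjusted p = 0.0199). N4BP1, an endonuclease of a related fold, fell by 0.95 at 20 h and 0.64 at 8 h. Those 3 and HNRNPAB, which fell by 0.39, were the 4 genes of the list called at 8 h. They made 11.1% higher, against 5.93% of all genes, and 11.1% lower, against 6.28%.

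Of 13 measured genes of the CCR4-NOT and PAN complexes other than CNOT7, 3 rose (23.1%, against 13.1% of all genes) and 4 fell (30.8%, against 17.2%) at 20 h against control, with a median of -0.11. CNOT9, a subunit that docks RNA-bound partners, averaged 5.58 at 20 h and 6.94 in control and fell by 1.37 (SE 0.10, limma adjusted p = 3.75e-06). CNOT10, a structural subunit, fell by 1.11 and PARN, a separate poly(A)-specific nuclease, by 0.91, while CNOT3, a scaffold subunit, rose by 1.01. At 8 h 2 rose (15.4%, against 5.93% of all genes), CNOT4 by 0.56 and CNOT2 by 0.39. In limma 0 fell there (6.28% of all genes did). At an unadjusted p under 0.05, higher and lower counted together, there were 7 of the 13, against 5271 of all 22109 genes. Without control replicate 3 the number called at 8 h was 4. Between 20 h and 8 h, 1 was higher (7.69%, against 8.95% of all genes) and 6 lower (46.2%, against 13.6%) at 20 h. CNOT9 was lower by 1.11 on the log2 scale, CNOT10 by 0.87, PARN by 0.86 and CNOT8, a paralog of CNOT7, by 0.64. Of the 4 measured TOB and BTG genes, whose proteins tie deadenylases to RNA-bound factors, TOB1 rose by 1.10 at 20 h and 0.56 at 8 h and TOB2 by 0.85 at 20 h. BTG3 and BTG4 differed by -0.17 and 0.11 at 20 h and were not called.

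In limma at 20 h against control, 9 of 16 measured exosome and SKI complex genes fell (56.2%, against 17.2% of all genes). There 0 rose (13.1% of all genes did). At an unadjusted p under 0.05, higher and lower counted together, there were 10 of the 16, against 8617 of all 22109 genes. The median was -0.45, against 0.03 over all genes. DIS3L, the nuclease of the cytoplasmic exosome, averaged 4.32 at 20 h and 5.84 in control and fell by 1.52 (SE 0.15, limma adjusted p = 3.06e-05). The ring and cap subunits EXOSC9, EXOSC3 and EXOSC8 fell by 1.34, 1.21 and 1.10. At 8 h 1 rose (6.25%, against 5.93% of all genes), DIS3 by 0.45, and 4 fell (25%, against 6.28%). Among those that fell were EXOSC9 by 0.59, EXOSC3 by 0.53 and EXOSC7 by 0.34. That 8 h total of 5 came to between 1 and 6 when any 1 array was left out, with 1 without 8 h replicate 1 or 3, and 2 or 3 without control replicate 1 or 2, 8 h replicate 2 or any 20 h array. Between 20 h and 8 h, 0 were higher (8.95% of all genes were) and 7 lower (43.8%, against 13.6%) at 20 h in limma. At an unadjusted p under 0.05, higher and lower counted together, there were 9, against 7482 of all 22109 genes.

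Of 18 measured genes for decapping and exonucleolytic decay, 2 rose (11.1%, against 13.1% of all genes) and 7 fell (38.9%, against 17.2%) at 20 h against control, with a median of -0.21. DCPS, the scavenger decapping enzyme, fell by 0.84, EIF4ENIF1, which encodes a partner of the cap-binding protein eIF4E that represses translation, by 0.74, LSM4, of the LSM ring, by 0.67 and DCP1B, a decapping activator, by 0.63. Without 20 h replicate 2 or 3, 5 of the list were called in place of 9. At 8 h 1 rose (5.56%, against 5.93% of all genes), PATL1, a decapping scaffold, by 0.41, and 3 fell (16.7%, against 6.28%), EIF4ENIF1 by 0.69, LSM2 by 0.63 and LSM4 by 0.43. Only 2 were called at 8 h without control replicate 2 or without any 1 of the 8 h arrays. XRN1, the exonuclease that degrades decapped mRNA, was lower at 20 h than at 8 h by 0.60 on the log2 scale (limma adjusted p = 0.00235).

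**Figure D3:**
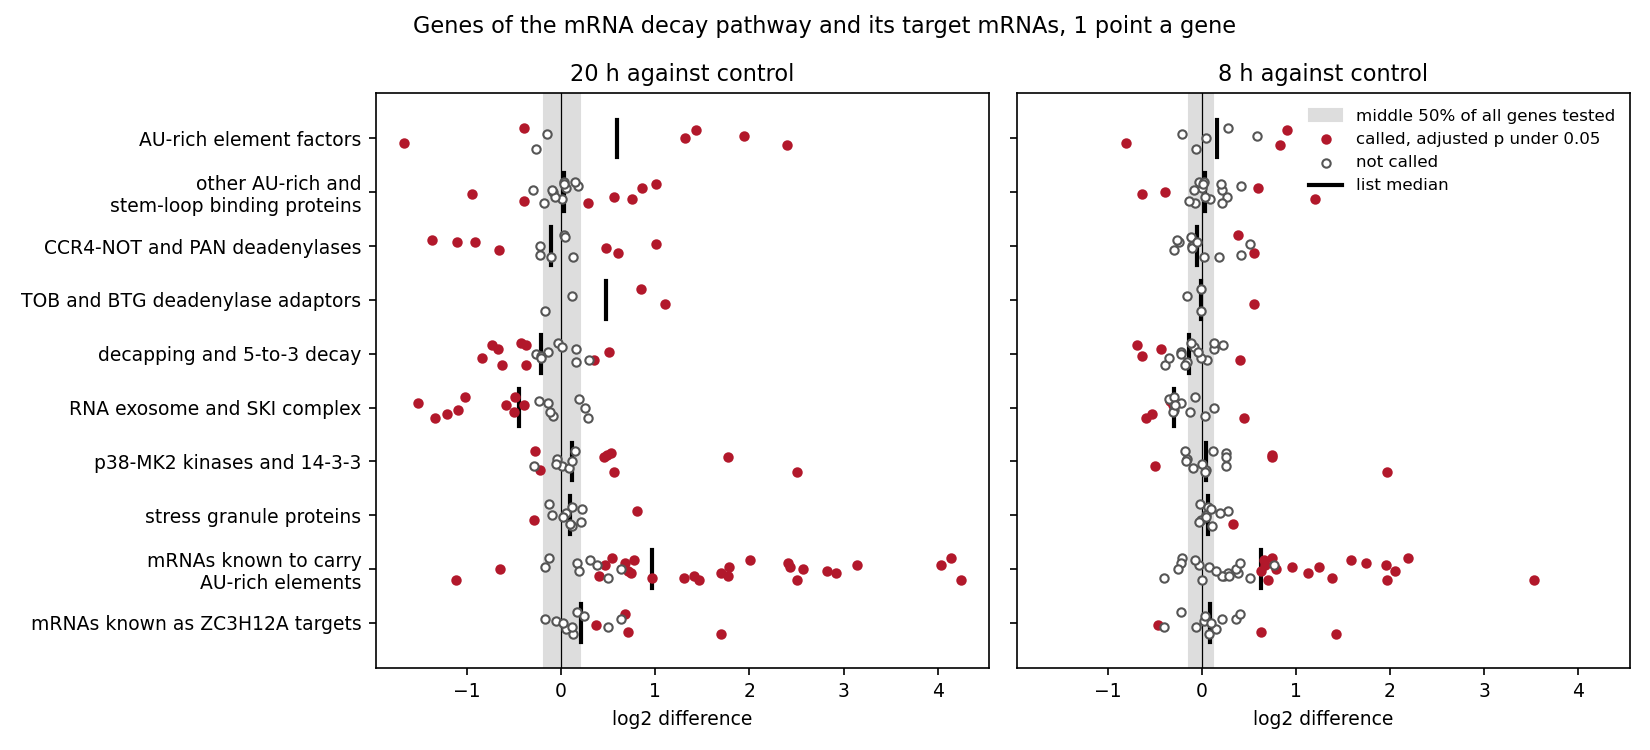
Differences in log2 units (horizontal axis) at 20 h against control (left) and 8 h against control (right) for each measured gene of the decay pathway and its target lists, 1 point a gene, with the vertical place within a list arbitrary. Filled points were called, black bars are list medians and the grey band is the middle 50% of all genes tested. The median of the mRNAs that carry AU-rich elements is 0.96 at 20 h and 0.63 at 8 h, and that of the exosome and SKI genes is -0.45 and -0.30.

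ZFP36 proteins are held inactive when the kinase MK2, driven by p38, phosphorylates them. Of 15 measured genes of that kinase branch, its phosphatases and the adaptors that bind phosphorylated ZFP36, 6 rose (40.0%, against 13.1% of all genes) and 2 fell (13.3%, against 17.2%) at 20 h against control, with a median of 0.12. MAP2K3, an activating kinase of p38, averaged 7.92 ± 0.08 at 20 h, 6.90 ± 0.02 at 8 h and 6.15 ± 0.24 in control (SD, n = 3 each). It rose by 1.77 at 20 h (limma adjusted p = 1.87e-06) and by 0.75 at 8 h, and the 20 h arrays exceeded the 8 h arrays by 1.02. MAPKAPK2, which encodes MK2, rose by 0.53 at 20 h (limma adjusted p = 0.00485). DUSP1, the phosphatase that switches p38 off and whose own mRNA is AU-rich, rose by 2.51 at 20 h and 1.97 at 8 h. YWHAE, an adaptor for phosphorylated proteins, rose by 0.56 at 20 h. Of the p38 kinase genes, MAPK11, MAPK12 and MAPK13 were not called in either comparison with control, and MAPK14 was not measured. PPP2CA and YWHAZ were not measured either. At 8 h 3 rose (20.0%, against 5.93% of all genes) and 1 fell (6.67%, against 6.28%). PPP2CB, a catalytic subunit of protein phosphatase 2A, was up by 0.75 and YWHAH down by 0.50. The called total was 5 at 20 h without control replicate 2 or 20 h replicate 2, in place of 8, and 7 at 8 h without control replicate 3, in place of 4.

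Many mRNAs known to carry AU-rich elements, the class of message that ZFP36 proteins bind, were called higher. Of 35 measured, 25 rose (71.4%, against 13.1% of all genes) and 2 fell (5.71%, against 17.2%) at 20 h against control, with 8 not called and a median of 0.96, against 0.03 over all genes. At 8 h 17 rose (48.6%, against 5.93% of all genes) and 0 fell (6.28% of all genes did) in limma. At an unadjusted p under 0.05, higher and lower counted together, there were 22, against 5271 of all 22109 genes. The 8 h median was 0.63, against 0.00 over all genes. Between 20 h and 8 h, 15 were higher (42.9%, against 8.95% of all genes) and 1 lower (2.86%, against 13.6%) at 20 h. The list was drawn up with earlier results of these arrays known, so its direction is not independent evidence. FOS, JUNB, EGR1 and FOSB, all early response transcription factor genes, were higher at 20 h than at 8 h by 2.64, 2.36, 2.07 and 1.95. FOS averaged 8.50 at 20 h, 5.86 at 8 h and 5.58 in control, and its difference at 8 h against control was 0.28 (limma adjusted p = 0.581). TNFAIP3, the NF-kB inhibitor A20, was the largest difference of the list in both comparisons with control, at 4.25 and 3.53. The 2 that fell at 20 h were BCL2, a survival gene, by 1.12, and PLAU, urokinase, by 0.65. TNF, the best known target of tristetraprolin, was picked out here after its values were seen. It averaged 3.22 at 20 h and 3.03 in control and was not called (difference 0.19, limma adjusted p = 0.237). Its group means were all under the median level of all genes, 3.89, where no detection call was at hand. CCL20, which was called higher at 20 h, was also under that level in every group. The control means of CXCL8, IL1A and IL1B, called higher at 20 h, were under it too, at 3.37, 3.27 and 3.70.

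**Figure D4:**
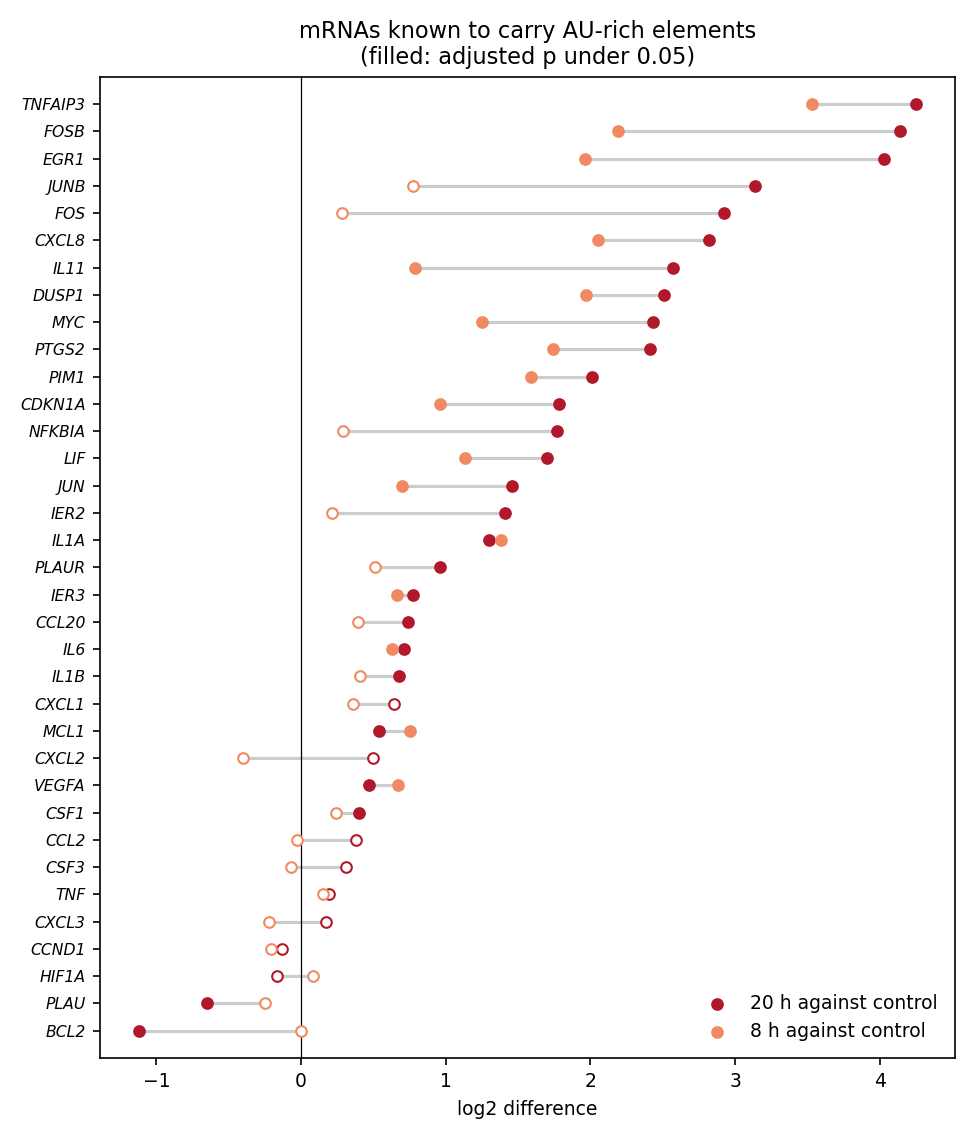
Differences in log2 units (horizontal axis) of 35 mRNAs known to carry AU-rich elements, ordered by the difference at 20 h against control, with 8 h against control on the same line. Filled points passed an adjusted p under 0.05. Filled points reach 4.25 at 20 h and 3.53 at 8 h for TNFAIP3, while BCL2 lies at -1.12 at 20 h and 0.00 at 8 h.

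In limma at 20 h against control, 4 of 14 measured mRNAs that ZC3H12A is known to cut rose (28.6%, against 13.1% of all genes). There 0 fell (17.2% of all genes did), and the median was 0.21. Some of the 14 are also in the AU-rich list. At an unadjusted p under 0.05, higher and lower counted together, there were 5 of the 14, against 8617 of all 22109 genes. REL, an NF-kB subunit, rose by 1.70 at 20 h and 1.43 at 8 h, and IL6 by 0.71 and 0.63. IL1B rose by 0.68 at 20 h, from a control mean of 3.70. IL2, IL12B, CXCL3, TNFRSF4, ICOS and CTLA4 were not called. Their group means were all under the median level of all genes, 3.89, where no detection call was at hand. NFKBID, TFRC and CXCL1, whose group means were all above that level, were not called at 20 h against control either (limma adjusted p = 0.328, 0.195 and 0.082). The same held for CXCL2 (limma adjusted p = 0.24), which was under that level only at 8 h. NFKBIZ, an inflammatory coactivator, rose by 0.37 at 20 h (limma adjusted p = 0.037) and fell by 0.47 at 8 h (limma adjusted p = 0.0277), and was higher at 20 h than at 8 h by 0.84 (limma adjusted p = 0.000687). TFRC, the transferrin receptor, was lower at 20 h than at 8 h by 0.37 on the log2 scale. The number called at 20 h against 8 h was 2, and 4 without control replicate 3. The 2 were 7.14% each way, against 8.95% of all genes higher and 13.6% lower.

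Of 11 measured genes of stress granule proteins other than TIA1 and TIAL1, ATXN2L rose by 0.81 and CAPRIN1 fell by 0.29 at 20 h against control, and 9 were not called. These are 9.09% each way, against 13.1% of all genes higher and 17.2% lower. The number called there was 0 without control replicate 1, and 1 without control replicate 2 or 20 h replicate 1. At 8 h PABPC1, which coats poly(A) tails, rose by 0.33 (limma adjusted p = 0.0473), 9.09% of the list against 5.93% of all genes. In limma 0 fell at 8 h (6.28% of all genes did). At an unadjusted p under 0.05, higher and lower counted together, there was 1 of the 11, against 5271 of all 22109 genes. None of the list was called at 8 h when any 1 array was left out other than control replicate 3 or 8 h replicate 2.

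Leukocyte markers were read as a check on other cells. Of 9 measured, 4 rose at 20 h against control (44.4%, against 13.1% of all genes). In limma 0 fell (17.2% of all genes did), and 5 were not called. At an unadjusted p under 0.05, higher and lower counted together, there were 5 of the 9, against 8617 of all 22109 genes. The summed log2 value of the 9 was 31.7 to 33.1 at 20 h, 30.8 to 30.9 at 8 h and 29.4 to 30.3 in control. The 4 were CD14 (by 0.77), CD68 (0.68), CD3D (0.51) and ITGAM (0.45). In control they averaged 3.16, 9.43, 3.04 and 2.24 in that order, where the median level of all genes was 3.89. PTPRC, the pan-leukocyte phosphatase, averaged 1.80 at 20 h, 1.78 at 8 h and 1.75 in control and did not pass (difference at 20 h against control 0.05, limma adjusted p = 0.687). The part of these genes in the rises of the decay factors was not tested.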

How the data were processed

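Per the submitters' processing notes, the authors summarised the 9 Affymetrix arrays by RMA in Affymetrix Expression Console. They deposited 1 value for each of 53617 probe sets, taken here as log2 because RMA gives that scale. Versions, annotation and genome build are not given in the sources used here. RMA equalises the arrays' value distributions, so a shift shared by all genes is not visible. Of 25713 annotated probe sets, 23558 had 1 symbol and 2155 several. The brightest probe set was kept for the 618 symbols with more than 1, giving 22109 genes. Symbols were updated through gene identifiers.

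Group means over all 9 arrays were fitted with lmFit and eBayes of limma 3.58.1 under R 4.3.3, two-sided, with 6 residual and 4.01 prior degrees of freedom. There is no read depth, and the number of arrays limits precision. The fit was checked on simulated data. Tables and figures were made with matplotlib 3.10.9, pandas 2.3.3 and numpy 2.4.6 in Python 3.11.15.

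The members, lists and tests were chosen with earlier results of these data known. Lists were counted, not tested. Genes named were all members, up to 4 called genes with the largest difference per list and comparison (small lists in full), and the 3 genes most like each called member. Some genes not called or not measured are named as well. Deviations of arrays with equal replicate numbers correlated between -0.318 and 0.111, so replicates were not paired. The 18 alternatives were a filter on low values, 2 other uses of probe sets, 2 normalizations, only the 2 groups compared, a trended and robust variance, the replicate block, 8 h replicates 1 and 2 counted as 1, and each array left out.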

Additional observations from a re-analysis of the deposited data

Results flagged for a closer look

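For 5 genes the difference from control was not the same in the 20 h and 8 h groups, by the limma test of 20 h against 8 h over all genes, in which the control arrays do not enter the difference but do enter the estimated spread. Dose and time change together there. ZFP36 was higher at 20 h by 1.57 (limma adjusted p = 8.72e-05), ZC3H12A by 1.35 (0.00065) and ZFP36L2 by 1.28 (0.000296). The difference was -0.86 for TIA1 (limma adjusted p = 0.00901) and -0.67 for TIAL1 (0.00194). In each case the 3 arrays at 20 h lay beyond the 3 arrays at 8 h. The genes were picked by a test on the same arrays, so this adds no support. ZFP36L1 and CNOT7, which were not called in that test, did not overlap there either. The share of all genes without overlap was not counted.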

How the results depend on the processing

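Over the 18 alternatives, no called difference of a factor gene changed sign. ZFP36, ZFP36L1, ZFP36L2, ZC3H12A and TIA1 at 20 h against control, and ZFP36 and ZFP36L1 at 8 h, kept their calls in each. The 20 h difference of ZFP36 ranged from 2.29 to 2.61 and that of TIA1 from -1.94 to -1.49. TIA1 at 8 h lost its call in 6 alternatives and TIAL1 at 20 h in 4, as given above. Differences that passed only elsewhere were CNOT7 at 20 h and ZC3H12A at 8 h (4 alternatives each) and ZFP36L1 at 20 h against 8 h (5). The number of factor genes called lower at 8 h was 0 in place of 1 with only the 2 groups compared, and also with the alike 8 h pair merged. It was 0 to 1 when 1 array was left out, and the number lower at 20 h against control was 1 to 2. The causes of these changes were not tested.

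The equal replicate numbers did not pair the arrays, and with the replicate block 6331 genes were called at 20 h against control, 2204 at 8 h and 4519 at 20 h against 8 h. The block changed no call of a factor gene. With it, 2 decapping genes, 2 exosome genes and 0 stress granule genes were called at 8 h, and 0 stress granule genes at 20 h against 8 h.

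At 8 h, exosome genes called were 3 with repeated quantile normalization, 1 with only the 2 groups compared and 1 with the alike 8 h pair merged, in place of 5. Decapping genes were 2 in the last 2 of these settings, in place of 4. Stress granule genes were 0 in all 3 settings and with centred arrays, in place of 1. For the p38 branch, 5 genes were called at 20 h against control with only the 2 groups compared, in place of 8. Between 20 h and 8 h, 5 were called above the median level, 6 with repeated quantile normalization and 5 with only the 2 groups compared, in place of 3. There, stress granule genes were 2 with only the 2 groups compared and 0 with the alike 8 h pair (replicates 1 and 2) merged, and other binding proteins 3 in that last setting, in place of 6.

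With 1 array left out, counts ranged as follows. At 20 h against control they were 0 to 3 for stress granule, 5 to 8 for p38 branch and 5 to 8 for decapping genes. At 8 h they were 1 to 6 for exosome, 0 to 1 for stress granule, 2 to 4 for decapping, 2 to 4 for deadenylase and 3 to 7 for p38 branch genes. Between 20 h and 8 h they were 2 to 5 for p38 branch, 0 to 2 for stress granule, 2 to 4 for ZC3H12A target and 2 to 8 for other binding protein genes.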

Other observations

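Control replicate 3 differed from the mean of controls 1 and 2 in the direction of the 20 h arrays for each factor gene called at 20 h. It was higher by 0.63 for ZFP36, 0.74 for ZFP36L1, 0.46 for ZFP36L2 and 0.73 for ZC3H12A. Its difference was -0.79 for TIA1 and -0.24 for TIAL1. For TIAL1 this was away from the 8 h arrays, which lay above all controls. ELAVL1 and CNOT7 differed by 0.18 and 0.19.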
